A study of Homo sapiens with 5 samples.

Results

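The genes described here are 49 genes of DNA replication and deoxynucleotide synthesis, measured by RNA sequencing in TOV21G, an established human line from an ovarian clear cell carcinoma. They were chosen by symbol from a list of the pathway, and all 49 had a row among the 28442 gene rows of the deposited table. All 49 also lay above a floor of 5 CPM (counts scaled to library size) on average over the 5 libraries, as did 10741 of all genes. The members fall into 9 roles: 6 subunits of the MCM helicase, 5 origin licensing factors, 8 helicase activation factors, 6 genes of the sliding clamp and its loader, 8 polymerase and primase subunits, 5 genes of flap removal, ligation and single-strand binding, 6 genes of deoxynucleotide supply, 4 E2F and cyclin E genes, and SLBP.

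HDAC6 is a mainly cytoplasmic lysine deacetylase, and the series concerns its role in ovarian cancer cells with mutations of ARID1A, a chromatin remodelling subunit. The repressed HDAC6 group holds 3 libraries: cells infected with a virus encoding a short hairpin RNA against HDAC6 (shHDAC6), cells given the HDAC6 inhibitor ACY1215, and cells given the HDAC6 inhibitor CAY10603. The control group holds 2 libraries, a control hairpin (shControl) and a vehicle control for the drugs (vehicle). Infected cells were selected with puromycin, and the labels name a pair of HDAC6 hairpins without saying which of them, or whether both, gave the shHDAC6 library. No source used here gives doses or times. Each treatment has 1 library, all from the same cell line, so single pairs of libraries carry no test and no replicate check.

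Total counts ran from 43498805 in vehicle to 57442767 in shControl, and intervals at these depths cover counting error only. HDAC6 itself had 29.2 CPM in shHDAC6 against 48.0 CPM in shControl, and 33.2 CPM in ACY1215 and 48.2 CPM in CAY10603 against 51.1 CPM in vehicle. Of 9 epithelial and clear cell carcinoma markers 5 lay above the floor, among them KRT18 at 213 to 282 CPM. KRT7, NAPSA and CDH1 were near 0. The summed leukocyte list lay between 2.36 and 5.76 CPM, the endothelial list between 0.288 and 0.628 CPM and the erythroid list between 0 and 0.157 CPM, with HBA2 at 0 in every library.

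Replication is prepared in late mitosis and G1, when the origin recognition complex, CDC6 and CDT1 load the ring-shaped MCM helicase onto DNA. At S phase entry kinases and the CDC45 and GINS proteins turn the loaded helicase on, and polymerases with their clamp copy both strands from deoxynucleotides made by ribonucleotide reductase and thymidylate synthase. E2F transcription factors and cyclin E drive many of these genes at the G1 to S transition, so the level of these transcripts in a culture is widely used as a sign of how many cells are replicating. In bulk RNA, fewer cells in S phase and less RNA per cell cannot be told apart.

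In the ACY1215 library nearly the whole set was lower than in vehicle. Of the 49 genes, 47 were lower, with a median log2 fold of -0.92, and 39 were at least 1.5-fold lower (79.6%), against 7.76% of all genes above the floor. At least 2-fold lower were 20 members (40.8%), against 3.04% of all genes. No member was 1.5-fold higher, against 5.86% of all genes, and the median over all genes was about 0 (log2 fold -0.00025). The folds ran from -1.60 for E2F2 to 0.19 for CCNE1, and the 95% counting interval of the fold lay below 0 for 46 members, against 37.8% of all genes above the floor, and above 0 for 1, CCNE1, against 38% of all genes. At this depth the interval left out 0 for most genes, and it covers counting error only. Square brackets below give that interval for single genes.

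In the shHDAC6 library the set stood on the other side of its control. Of the 49 genes 46 were higher than in shControl, with a median log2 fold of 0.42 and a median over all genes of 0.0038. The size was smaller: 7 members (14.3%) were at least 1.5-fold higher, against 2.82% of all genes, and 0 were 1.5-fold lower, against 2.2% of all genes. The 7 were GINS2, MCM7, POLD1, ORC1, RFC2, E2F1 and E2F2, with log2 folds from 0.63 to 0.74. The 3 lower members were GINS3 at -0.18, TYMS at -0.04 and RPA1 at -0.04. The counting interval lay above 0 for 41 members, against 35.1% of all genes above the floor, and below 0 for 1, GINS3, against 36% of all genes.

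The CAY10603 library lay close to vehicle. Of the 49 genes 24 were higher and 25 lower, the median log2 fold was -0.0014 beside 0.0053 over all genes, and 0 members were 1.5-fold higher or lower, against 0.344% and 0.698% of all genes. The folds ran from -0.32 for CDT1 to 0.34 for DUT. The counting interval lay above 0 for 13 members (26.5%), against 27.7% of all genes above the floor, and below 0 for 11 (22.4%), against 22.9%, so both shares were near the background. ACY1215 and CAY10603 were set against the same vehicle library and their doses are not given, so the inhibitors' values stand side by side here without a comparison of the compounds.

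**Figure D1:**
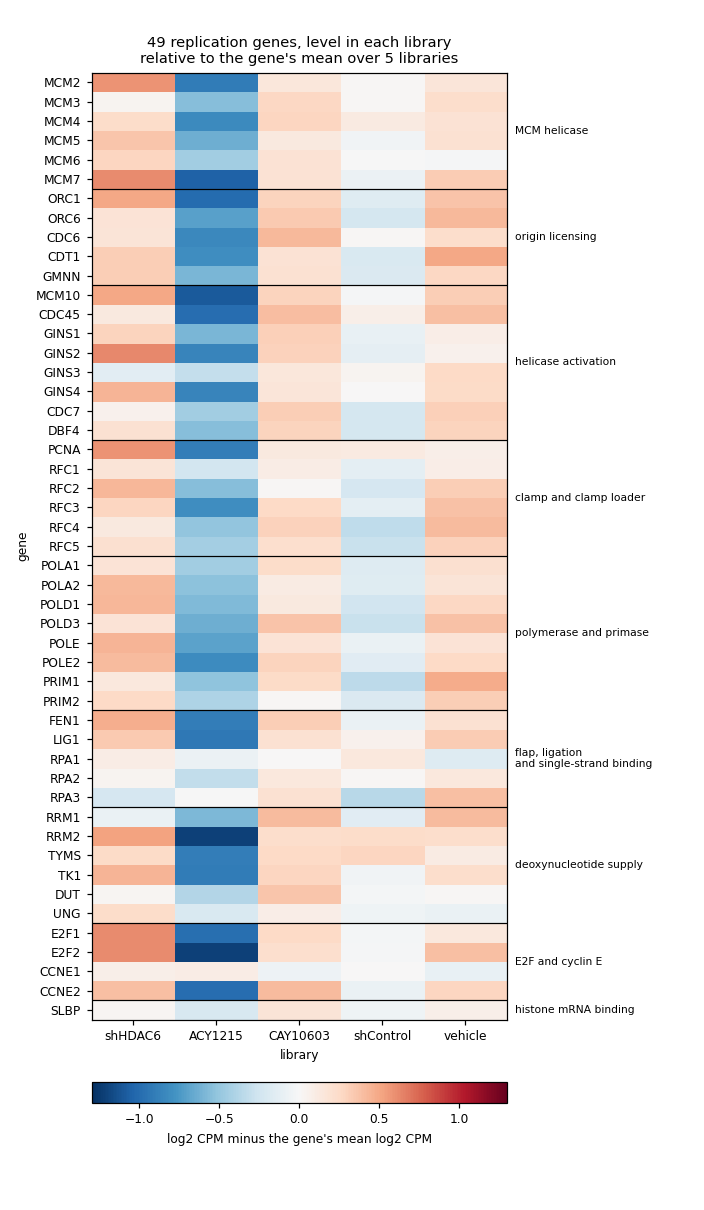
Level of each of the 49 genes (rows, grouped by role) in the 5 libraries (columns), as log2 CPM minus the gene's mean over the libraries. Blue cells are below and red cells above that mean, and the ACY1215 column is the lowest of the 5 for 46 genes.

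The summed level of the members was 2998 CPM in shHDAC6, 1604 CPM in ACY1215 and 2906 CPM in CAY10603, against 2397 CPM in shControl and 2889 CPM in vehicle. As a share of all counts this was 0.306% in shHDAC6, 0.153% in ACY1215 and 0.288% in CAY10603, against 0.240% in shControl and 0.296% in vehicle. ACY1215 was the lowest of the 5 libraries for 46 of the 49 members (93.9%), against 29.9% of all genes above the floor. The exceptions were RPA1 and CCNE1, lowest in vehicle, and RPA3, lowest in shControl. shHDAC6 was the highest library for 23 members (46.9%), against 25.8% of all genes. For the rest it was CAY10603 (12), vehicle (11), shControl (2) or ACY1215 (1). The share over all genes was not computed for these, so they are not read as particular to the members. Higher in shHDAC6 than in shControl and at once lower in ACY1215 than in vehicle were 45 members (91.8%), against 31% of all genes.

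The controls differed too. shControl was lower than vehicle for 42 of the 49 members, with a median log2 fold of -0.28 beside 0.014 over all genes. At least 1.5-fold lower in shControl were 7 members (14.3%), against 3.94% of all genes, and 0 were 1.5-fold higher, against 2.79% of all genes. The folds ran from -0.81 for PRIM1 to 0.30 for RPA1, and the counting interval lay below 0 for 39 members, against 32.4% of all genes above the floor, and above 0 for 2, against 37.4% of all genes. Which control is used therefore changes the knockdown value: against vehicle, shHDAC6 had a median of 0.11 with 30 members higher and 0 members 1.5-fold higher, against 3% of all genes. ACY1215 was lower than shControl too, with a median of -0.50, 47 members lower and 22 at least 1.5-fold lower, against 5.76% of all genes. CAY10603 was higher than shControl for 45 members, with a median of 0.30 and 2 members 1.5-fold higher (POLD3 and RFC4), against 3% of all genes. Hairpin and drug libraries differ in infection, selection and any unlabelled handling as well, and these cannot be told apart from the difference between the controls.

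**Figure D2:**
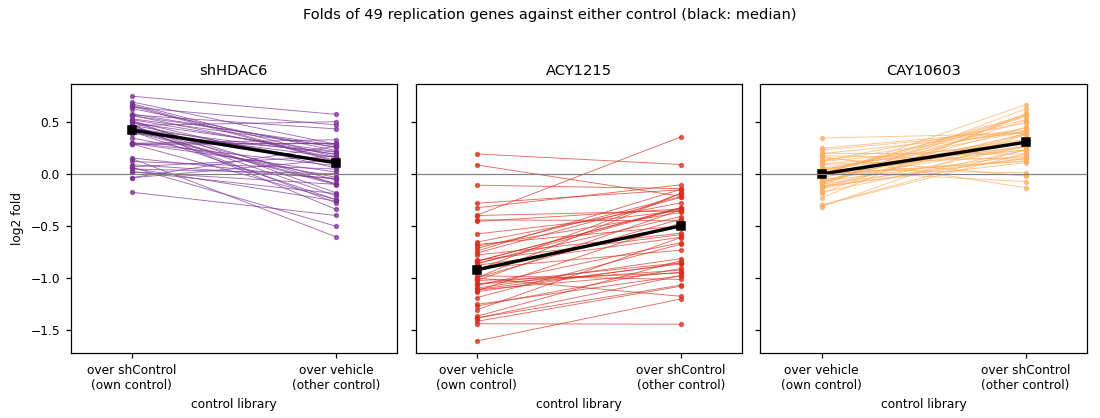
Log2 fold of each of the 49 genes in shHDAC6, ACY1215 and CAY10603 over the control of the same experiment type (left of each panel) and over the other control library (right). Lines join a gene's values and black squares are medians: 0.42 over the own and 0.11 over the other control for shHDAC6, -0.92 and -0.50 for ACY1215, and -0.0014 and 0.30 for CAY10603.

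The comparison with more than 1 library a side set the 3 repressed HDAC6 libraries against the 2 controls, with experiment type as a covariate and 2 residual degrees of freedom. No member passed the test (edgeR quasi-likelihood test, Benjamini-Hochberg adjusted p = 1.00 for every member), and 0 had an unadjusted p under 0.05, also with DESeq2 and limma-voom. The smallest unadjusted p of a member was 0.217. Over all 13449 genes tested the same fit called 0 (0%), with 100 at an unadjusted p under 0.05, while DESeq2 called 0 with 112 and limma-voom 0 with 121. The members' pooled log2 folds lay between -0.28 and 0.19 with a median of -0.06 and standard errors from 0.14 to 0.46. These p-values measure only the spread between these libraries, in which the opposite folds of shHDAC6 and ACY1215 count as spread.

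Whether the knockdown and the drugs differed was tested directly with the interaction of experiment type and group, a test added after the folds had been seen, which leaves 1 residual degree of freedom. The knockdown effect minus the drug effect had a median of 0.88 on the log2 scale over the members. No member passed (edgeR, smallest adjusted p = 0.967), and 1 member, RFC2, had an unadjusted p under 0.05, with a difference of 1.21. Of the 13449 genes tested, 343 had an unadjusted p under 0.05 in the same edgeR fit, so RFC2 does not set the members apart from all genes. The fit called 1 gene of 13449 (0.00744%), GTF2IP1, which is not a replication gene. That 1 residual degree of freedom is the difference between ACY1215 and CAY10603, so the spread in this test is a difference between treatments and not between replicates. Missing the threshold therefore does not show that the knockdown and drug effects were alike.

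**Figure D3:**
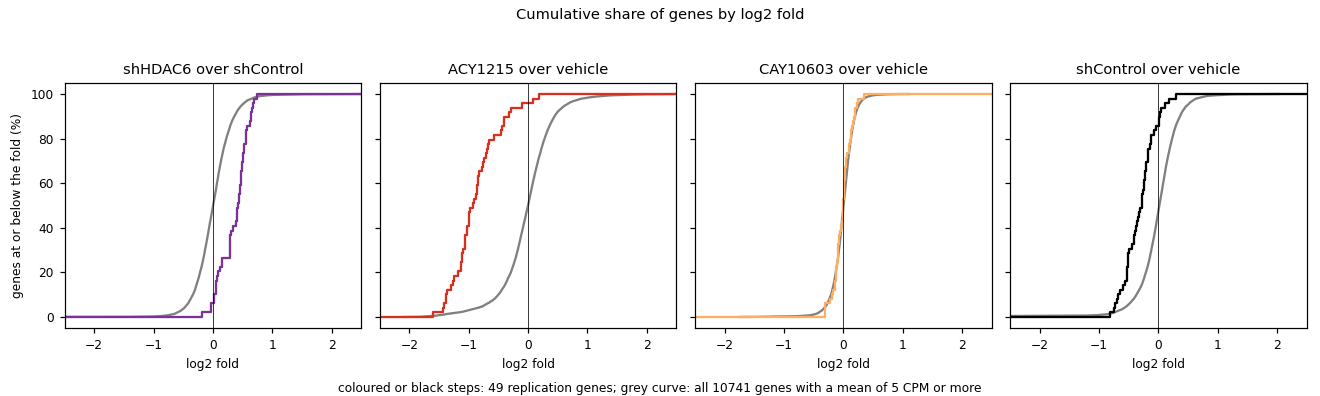
Cumulative share of genes (vertical axis, %) by log2 fold (horizontal axis) for the 49 replication genes (steps) and all 10741 genes above the floor (grey curve), in 4 pairs of libraries. The steps lie right of the grey curve for shHDAC6 over shControl (median 0.42), far left of it for ACY1215 over vehicle (median -0.92), on it for CAY10603 over vehicle (median -0.0014) and left of it for shControl over vehicle (median -0.28).

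To see what the genes share beside their function, the promoter windows of RefSeq (GRCh38.p14, 250 bases before to 50 after the gene's start) were matched by Entrez number, which gave a window for 42 of the 49. Each was searched on both strands for 4 forms of the E2F motif (TTTGGCGC, TTTCCCGC, TTTCGCGC and TTTGCCGC, of which TTTGGCGC and TTTCGCGC on opposite strands can overlap) and for CCAAT, the box bound by NF-Y. An E2F form was found in 19 of 42 windows (45.2%), against 518 of 8692 windows of genes above the floor (5.96%) and 908 of 27305 in the whole table (3.33%). By form, TTTCCCGC was in 9 member windows (21.4%, against 2.90% of the genes above the floor) and TTTGGCGC in 8 (19.0%, against 1.19%). TTTCGCGC was in 5 (11.9%, against 1.16%) and TTTGCCGC in 1 (2.38%, against 0.932%). CCAAT was found in 21 of 42 (50%), against 38.0% and 35.7%. The median GC content was 65.5% in the members, 65.3% in the genes above the floor and 58.3% in the whole table. The ACY1215 fold had a median of -0.999 over the 19 members with a form and -0.86 over the 23 without, with ranges of -1.60 to -0.44 and of -1.44 to 0.19. A match describes letters in the window, and factor binding was not measured. Only 1 window per gene was searched, although some genes have more, among them RRM2 and UNG with 2 each. The shares with and without a motif therefore hold for the searched windows only.

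Shown first are the windows of the 3 members with the lowest ACY1215 folds that have a window, E2F2 (chr1:23531184-23531483, minus strand), RRM2 (chr2:10122489-10122788, plus strand) and MCM10 (chr10:13161308-13161607, plus strand). Capitals mark the E2F forms and CCAAT on either strand, and every line reads 5′ to 3′ on the gene's strand. E2F2 holds TTTGGCGC starting 42 bases before the start, RRM2 holds 3 CCAAT boxes in a spaced run, and MCM10 holds 2.
E2F2: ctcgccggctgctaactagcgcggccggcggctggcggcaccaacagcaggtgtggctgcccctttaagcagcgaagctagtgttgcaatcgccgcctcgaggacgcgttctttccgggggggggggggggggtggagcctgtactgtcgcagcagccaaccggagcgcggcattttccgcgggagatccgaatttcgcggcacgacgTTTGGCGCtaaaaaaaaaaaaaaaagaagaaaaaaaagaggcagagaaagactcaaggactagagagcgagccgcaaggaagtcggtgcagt
RRM2: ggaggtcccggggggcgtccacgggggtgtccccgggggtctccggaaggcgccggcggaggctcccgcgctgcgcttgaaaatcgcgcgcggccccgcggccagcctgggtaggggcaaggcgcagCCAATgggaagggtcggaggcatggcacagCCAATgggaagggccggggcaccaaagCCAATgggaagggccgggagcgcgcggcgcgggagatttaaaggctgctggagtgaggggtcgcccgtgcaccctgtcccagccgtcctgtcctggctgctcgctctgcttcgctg
MCM10: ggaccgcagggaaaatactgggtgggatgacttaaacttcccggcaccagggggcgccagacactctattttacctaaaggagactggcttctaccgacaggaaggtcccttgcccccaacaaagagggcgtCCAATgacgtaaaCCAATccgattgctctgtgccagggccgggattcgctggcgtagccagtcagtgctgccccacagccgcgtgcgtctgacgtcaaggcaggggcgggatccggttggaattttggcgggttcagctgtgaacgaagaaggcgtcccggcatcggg

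The 3 members with the highest ACY1215 folds among those with a window are UNG (chr12:109097347-109097646, plus strand), RPA1 (chr17:1829755-1830054, plus strand) and CCNE1 (chr19:29811741-29812040, plus strand), shown next. None of the 4 E2F forms is in these 3 windows, nor in those of RRM2 and MCM10 above. UNG holds 1 CCAAT and RPA1 holds 2, while CCNE1 holds none. Among the windows shown so far, only that of E2F2 holds an E2F form. Windows this few cannot relate a motif to the fold. Spellings other than the 4 forms were not searched, nor was the other window of RRM2 or of UNG.
UNG: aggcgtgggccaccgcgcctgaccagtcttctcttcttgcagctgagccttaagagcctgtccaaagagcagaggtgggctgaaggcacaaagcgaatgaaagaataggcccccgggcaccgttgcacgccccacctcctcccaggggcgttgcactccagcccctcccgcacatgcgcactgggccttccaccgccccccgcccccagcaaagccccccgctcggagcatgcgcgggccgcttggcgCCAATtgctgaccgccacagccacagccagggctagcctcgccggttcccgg
RPA1: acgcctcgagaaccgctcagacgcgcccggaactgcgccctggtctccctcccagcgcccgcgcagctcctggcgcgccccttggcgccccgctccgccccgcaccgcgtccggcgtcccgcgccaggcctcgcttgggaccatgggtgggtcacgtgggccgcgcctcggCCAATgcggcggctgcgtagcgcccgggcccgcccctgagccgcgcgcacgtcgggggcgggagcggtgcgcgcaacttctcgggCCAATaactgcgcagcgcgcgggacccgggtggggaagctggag
CCNE1: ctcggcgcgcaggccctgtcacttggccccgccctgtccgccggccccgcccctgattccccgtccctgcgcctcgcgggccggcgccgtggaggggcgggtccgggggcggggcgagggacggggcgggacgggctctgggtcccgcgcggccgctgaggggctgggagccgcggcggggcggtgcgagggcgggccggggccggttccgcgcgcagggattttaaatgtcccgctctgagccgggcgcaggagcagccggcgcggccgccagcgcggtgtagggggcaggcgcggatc

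MCM6 (chr2:135876394-135876693, minus strand) was added after the motif counts had been seen, because its window holds the most E2F forms, 4, in 2 places where forms on opposite strands overlap, and its ACY1215 fold of -0.44 is the weakest of the MCM genes.
MCM6: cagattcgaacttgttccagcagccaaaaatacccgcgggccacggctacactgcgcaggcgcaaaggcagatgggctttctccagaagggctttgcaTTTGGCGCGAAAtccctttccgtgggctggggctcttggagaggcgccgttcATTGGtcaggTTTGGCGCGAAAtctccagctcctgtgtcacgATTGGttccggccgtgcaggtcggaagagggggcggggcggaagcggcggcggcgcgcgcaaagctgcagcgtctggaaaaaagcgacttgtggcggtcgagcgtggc

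The MCM helicase, the hexamer of MCM2 to MCM7 that unwinds DNA, was lower in ACY1215 for all 6 subunits, with a median log2 fold of -0.93 and 5 of 6 at least 1.5-fold lower. MCM7 stood at 223 CPM in shHDAC6, 70.05 in ACY1215, 166 in CAY10603, 138 in shControl and 183 in vehicle. It thus reached 38.3% of vehicle in ACY1215, a log2 fold of -1.38 [-1.44 to -1.33], and 0.69 [0.65 to 0.73] in shHDAC6 over shControl. MCM2, a subunit that also binds histones, had 94 CPM in shHDAC6, 33.5 in ACY1215, 69.3 in CAY10603, 63.5 in shControl and 69.7 in vehicle, with shHDAC6 the highest library and ACY1215 the lowest. Its folds were -1.06 [-1.14 to -0.97] in ACY1215 and 0.57 [0.50 to 0.63] in shHDAC6, while CAY10603 did not differ from vehicle beyond counting error (-0.0087 [-0.08 to 0.06]). MCM6 varied least, at 47.7 CPM in shHDAC6, 28.6 in ACY1215, 44.6 in CAY10603, 39.1 in shControl and 38.9 in vehicle. Its ACY1215 fold was -0.44 [-0.54 to -0.34], and shControl did not differ from vehicle beyond counting error (0.0081 [-0.08 to 0.10]).

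Because the ring holds 1 copy of each subunit, levels per length are of interest. On the FPKM scale of the authors, which divides a gene's fragments by its length and by library size, MCM7 was the highest MCM transcript in 4 of the 5 libraries and MCM6 the lowest in all 5. MCM7 had 25.28 FPKM and MCM6 7.59 FPKM in ACY1215, a ratio of 3.33, against 70.87 and 11.06 FPKM and a ratio of 6.41 in vehicle. In ACY1215 MCM3 was the highest, at 33.05 FPKM, and the span from highest to lowest subunit was 4.35, against 6.41 in vehicle. In shHDAC6 the MCM7 to MCM6 ratio was 6.35, against 4.81 in shControl.

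Origin licensing genes were lower in ACY1215 for all 5 members, each at least 1.5-fold, with a median of -1.12. ORC1, an ATPase subunit of the origin recognition complex, had 26.5 CPM in shHDAC6, 9.38 in ACY1215, 22.8 in CAY10603, 16.7 in shControl and 24.3 in vehicle. Its folds were -1.37 [-1.53 to -1.21] in ACY1215 and 0.66 [0.54 to 0.78] in shHDAC6. CDC6, which joins the complex to load MCM, stood at 67.6 CPM in shHDAC6, 33.7 in ACY1215, 80.1 in CAY10603, 60.8 in shControl and 70.04 in vehicle. Here CAY10603 was the highest library, with folds of -1.06 [-1.14 to -0.97] in ACY1215, 0.19 [0.12 to 0.26] in CAY10603 and 0.15 [0.08 to 0.22] in shHDAC6. GMNN encodes geminin, the inhibitor that binds the loader CDT1, and had 35.8 CPM in shHDAC6, 18.96 in ACY1215, 32.9 in CAY10603, 25.2 in shControl and 34.4 in vehicle, a fold of -0.86 [-0.98 to -0.74] in ACY1215. CDT1, which loads MCM together with CDC6, had its highest level in vehicle and its lowest in ACY1215, at 8.37 CPM in shHDAC6, 3.82 in ACY1215, 7.62 in CAY10603, 5.85 in shControl and 9.49 in vehicle.

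The helicase activation genes were lower in ACY1215 for all 8, with a median of -0.87 and 7 at least 1.5-fold lower. MCM10, needed to open the loaded helicase, had 73.3 CPM in shHDAC6, 24.2 in ACY1215, 63.04 in CAY10603, 51.1 in shControl and 64.5 in vehicle. Its fold in ACY1215, -1.41 [-1.51 to -1.32], is the third lowest of the set, and its window above holds 2 CCAAT boxes. GINS2, a subunit of the GINS complex that joins CDC45 and MCM, had 16.1 CPM in shHDAC6, 5.78 in ACY1215, 12.9 in CAY10603, 9.62 in shControl and 10.9 in vehicle. It had the highest shHDAC6 fold of the 49, 0.74 [0.59 to 0.90], and -0.91 [-1.12 to -0.70] in ACY1215. GINS3, of the same complex, stood apart, at 17.2 CPM in shHDAC6, 15.2 in ACY1215, 20.9 in CAY10603, 19.4 in shControl and 22.7 in vehicle. It was lower in shHDAC6 than in shControl (-0.18 [-0.30 to -0.05]) and its ACY1215 fold of -0.58 [-0.71 to -0.44] is just under 1.5-fold. CDC45 was nearly as low as MCM10 in ACY1215 (-1.38) but near its control in shHDAC6 (0.05).

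**Figure D4:**
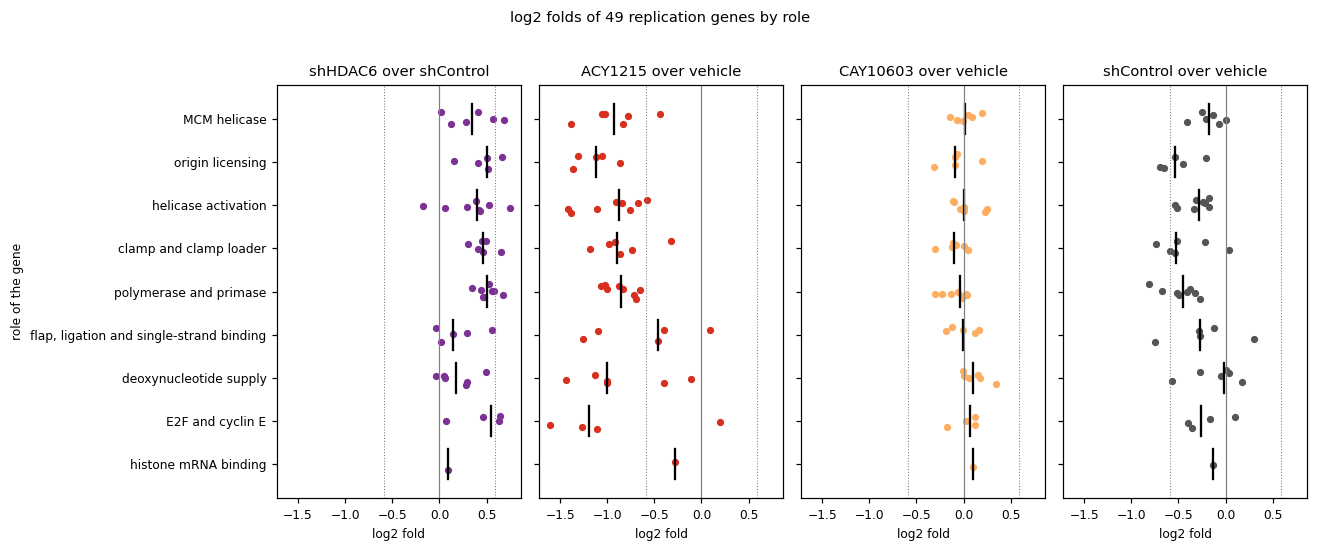
Log2 fold of the 49 genes (points) by role (rows) in 4 pairs of libraries, with the role's median as a black bar and dotted lines at 1.5-fold. In ACY1215 over vehicle the medians lie between -1.19 (E2F and cyclin E) and -0.28 (SLBP), and the points of CAY10603 over vehicle stay between the dotted lines.

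PCNA, the sliding clamp that holds polymerases on DNA, was the most abundant member per length, with a median of 164 FPKM over the libraries. It had 258 CPM in shHDAC6, 92.7 in ACY1215, 188 in CAY10603, 187 in shControl and 183 in vehicle. ACY1215 held 50.8% of vehicle (-0.98 [-1.03 to -0.93]), shHDAC6 was above shControl (0.46 [0.43 to 0.50]), and CAY10603 and shControl lay within 0.05 of vehicle on the log2 scale. Of the 5 subunits of the clamp loader RFC, RFC3 had the lowest ACY1215 fold, -1.19 [-1.29 to -1.09], at 46.5 CPM in shHDAC6, 21.9 in ACY1215, 45.9 in CAY10603, 35.04 in shControl and 49.99 in vehicle. RFC1, the large subunit, had the weakest, -0.33 [-0.38 to -0.27], at 156 CPM in shHDAC6, 118 in ACY1215, 149 in CAY10603, 127 in shControl and 148 in vehicle. RFC2 had 33.3 CPM in shHDAC6, 16.8 in ACY1215, 24.9 in CAY10603, 21.2 in shControl and 30.7 in vehicle, and is 1 of the 11 members lower in CAY10603 than in vehicle beyond counting error (-0.30 [-0.41 to -0.19]). Of these 6 genes RFC4 differed most between the controls, at -0.73 in shControl over vehicle.

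All 8 polymerase and primase genes were at least 1.5-fold lower in ACY1215 than in vehicle, within a narrow range of -1.07 to -0.66. All 8 were higher in shHDAC6 than in shControl, at 0.34 to 0.67. Both counts depend on the control, since all 8 were lower in shControl than in vehicle. Against shControl 2 of the 8 were 1.5-fold lower in ACY1215, beside 5.76% of all genes. Against vehicle 4 were higher and 4 lower in shHDAC6. POLE2, a small subunit of the leading strand polymerase epsilon, had 14.4 CPM in shHDAC6, 6.16 in ACY1215, 13.3 in CAY10603, 9.76 in shControl and 12.97 in vehicle. Its folds were -1.07 [-1.28 to -0.87] in ACY1215 and 0.56 [0.40 to 0.72] in shHDAC6. POLA1, the catalytic subunit of polymerase alpha, which extends primers, had 46.6 CPM in shHDAC6, 30.3 in ACY1215, 48.6 in CAY10603, 36.7 in shControl and 47.7 in vehicle. Its folds were the weakest of the 8 in both, -0.66 [-0.75 to -0.56] in ACY1215 and 0.34 [0.26 to 0.43] in shHDAC6. PRIM1 and PRIM2, which form the primase, were lower in CAY10603 than in vehicle, at -0.23 [-0.36 to -0.10] and -0.30 [-0.44 to -0.17].

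The genes of flap removal and ligation had lower ACY1215 folds than those of single-strand binding. LIG1, the ligase that seals Okazaki fragments, had 85.8 CPM in shHDAC6, 35.6 in ACY1215, 77.7 in CAY10603, 70.05 in shControl and 84.8 in vehicle, a fold of -1.25 [-1.33 to -1.17] in ACY1215. FEN1, which cuts their flaps, had a fold of -1.10 [-1.21 to -0.98]. RPA1, the large subunit of the single-strand binding protein RPA, had 43.9 CPM in shHDAC6, 38.8 in ACY1215, 41.03 in CAY10603, 45.01 in shControl and 36.5 in vehicle. Its ACY1215 fold of 0.09 [-0.0093 to 0.18] does not differ from 0 beyond counting error, and shControl was its highest library. RPA2 at -0.46 and RPA3 at -0.40 were lower but less than 1.5-fold. RPA3 had 33.4 CPM in shHDAC6, 38.5 in ACY1215, 44.6 in CAY10603, 30.2 in shControl and 50.8 in vehicle, so that both hairpin libraries were its lowest. RPA takes part in repair as well as in replication.

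In deoxynucleotide supply the ACY1215 folds spread widely. RRM2, the S phase subunit of ribonucleotide reductase, stood at 139 CPM in shHDAC6, 42.1 in ACY1215, 114 in CAY10603, 114 in shControl and 114 in vehicle. CAY10603, shControl and vehicle were nearly equal, ACY1215 held 36.9% of vehicle (-1.44 [-1.51 to -1.37]), and shHDAC6 was above shControl (0.28 [0.24 to 0.33]). RRM1, the catalytic subunit, had 151 CPM in shHDAC6, 107 in ACY1215, 214 in CAY10603, 144 in shControl and 213 in vehicle, a fold of -0.997 [-1.05 to -0.95] in ACY1215. The RRM2 to RRM1 ratio in FPKM was 0.361 in ACY1215 against 0.492 in vehicle, and 0.855 in shHDAC6 against 0.732 in shControl.

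TYMS, thymidylate synthase, had 28.00 CPM in shHDAC6, 12.7 in ACY1215, 28.3 in CAY10603, 28.8 in shControl and 25.5 in vehicle. It held 50.03% of vehicle in ACY1215 (-0.999 [-1.14 to -0.86]), and shHDAC6 did not differ from shControl beyond counting error (-0.04 [-0.14 to 0.06]). TYMS, PRIM1 and RRM1 are the members just outside 2-fold, and POLD3 and MCM4 at -1.02 those just inside it. TK1, the thymidine salvage kinase, had folds of -1.13 [-1.25 to -1.02] in ACY1215 and 0.49 [0.40 to 0.57] in shHDAC6. UNG, which removes uracil from DNA, was near vehicle in ACY1215 (-0.11 [-0.23 to 0.01]) at 29.1 CPM in shHDAC6, 21.5 in ACY1215, 26.2 in CAY10603, 23.7 in shControl and 23.2 in vehicle. DUT, the enzyme that clears dUTP, had its highest level in CAY10603, at 65.5 CPM in shHDAC6, 49.6 in ACY1215, 82.95 in CAY10603, 63.4 in shControl and 65.4 in vehicle, a fold of 0.34 [0.27 to 0.41].

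The E2F genes had low levels, and E2F2 the lowest ACY1215 fold of the set. E2F2, an activator E2F, had 17.7 CPM in shHDAC6, 4.95 in ACY1215, 13.4 in CAY10603, 11.4 in shControl and 15.1 in vehicle. It held 32.9% of vehicle in ACY1215, the lowest share of the 49 (-1.60 [-1.82 to -1.40]), and its fold in shHDAC6 was 0.63 [0.48 to 0.77]. E2F1 had 7.38 CPM in shHDAC6, 2.44 in ACY1215, 5.78 in CAY10603, 4.72 in shControl and 5.32 in vehicle, with folds of -1.11 [-1.45 to -0.81] in ACY1215 and 0.64 [0.42 to 0.87] in shHDAC6. It is the least abundant member per length, with a median of 2.16 FPKM, and its 95% interval in ACY1215 ran from 2.03 to 2.90 CPM against 4.66 to 6.04 CPM in vehicle.

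Cyclin E is the partner of CDK2 at the G1 to S transition, and its genes parted. CCNE2 followed the set, with 17.97 CPM in shHDAC6, 6.91 in ACY1215, 18.2 in CAY10603, 12.99 in shControl and 16.7 in vehicle and a fold of -1.27 [-1.46 to -1.09] in ACY1215. CCNE1 did not, with 32.9 CPM in shHDAC6, 33.4 in ACY1215, 29.8 in CAY10603, 31.4 in shControl and 29.2 in vehicle, a fold of 0.19 [0.09 to 0.30] in ACY1215 and 0.07 [-0.03 to 0.16] in shHDAC6. The CCNE1 to CCNE2 ratio in FPKM was 6.21 in ACY1215 and 2.23 in CAY10603 against 2.71 in vehicle, and 2.37 in shHDAC6 against 2.84 in shControl. SLBP, the protein that binds the stem-loop of histone mRNAs, varied little, at 90.2 CPM in shHDAC6, 76.3 in ACY1215, 99.3 in CAY10603, 84.9 in shControl and 92.9 in vehicle. Its folds were -0.28 [-0.35 to -0.22] in ACY1215 and 0.09 [0.03 to 0.15] in shHDAC6.

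**Figure D5:**
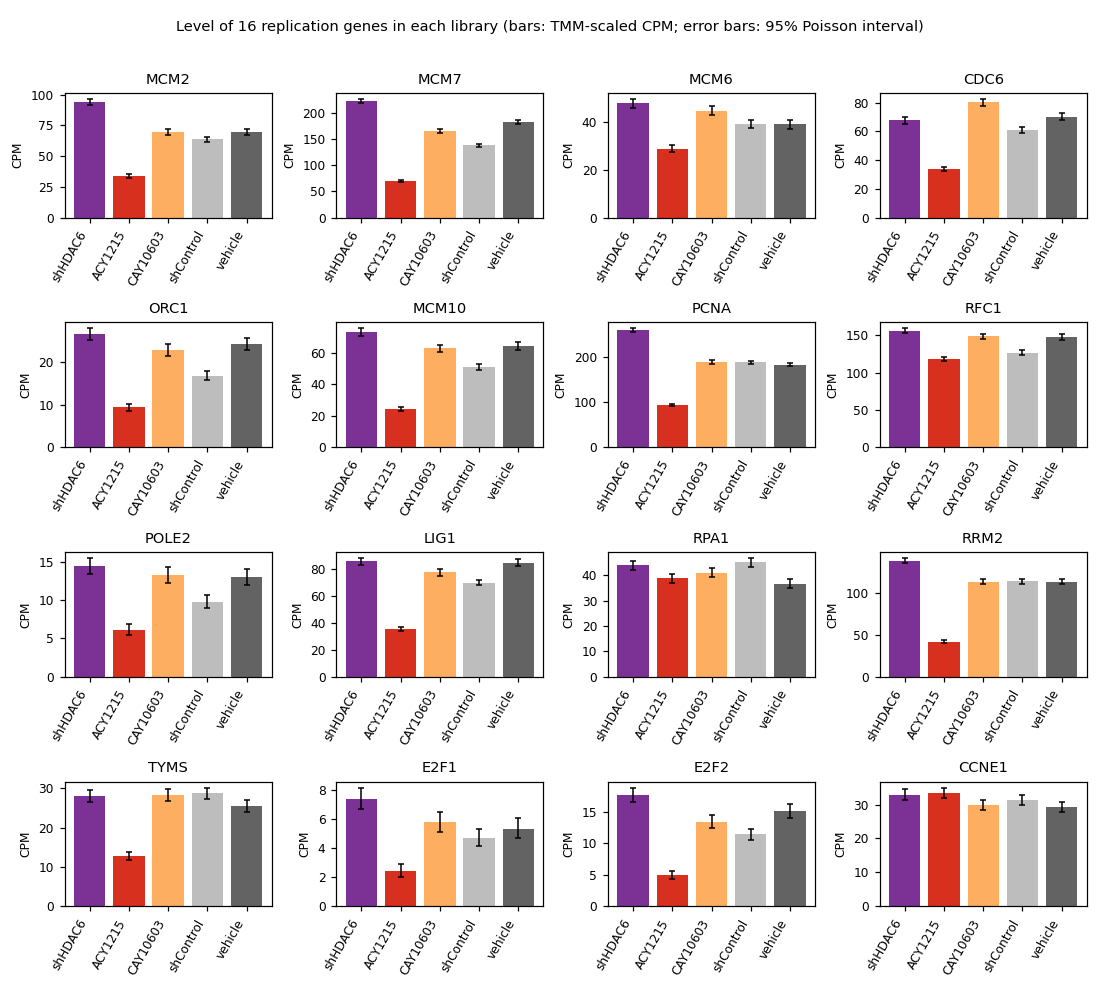
Level of 16 of the 49 genes in each library, as CPM (bars start at 0) with 95% Poisson intervals that cover counting error only. The ACY1215 bar is the lowest in each panel except RPA1 and CCNE1, and shHDAC6 is the tallest for MCM2, MCM7, PCNA, RRM2, E2F1 and E2F2 among others.

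A further 3 lists set the members in context. Of 35 other fork and origin genes 34 lay above the floor, with medians of 0.30 in shHDAC6 over shControl, -0.73 in ACY1215 over vehicle and 0.0025 in CAY10603 over vehicle. In ACY1215 22 of the 34 were at least 1.5-fold lower, against 7.76% of all genes, and 11 at least 2-fold lower, against 3.04%. In the same library 0 were 1.5-fold higher, against 5.86% of all genes. In shHDAC6 5 were 1.5-fold higher, against 2.82% of all genes. RECQL4, a helicase that acts at origins, and DTL, which targets CDT1 for destruction, had the lowest ACY1215 folds, at -1.53 and -1.45. RECQL4 had 15.4 CPM in shHDAC6, 4.16 in ACY1215, 9.79 in CAY10603, 8.98 in shControl and 12.1 in vehicle. DTL had 55.7 CPM in shHDAC6, 27.4 in ACY1215, 63.8 in CAY10603, 38.7 in shControl and 74.8 in vehicle. The highest were ORC5, an origin recognition subunit, at 0.14, and ASF1A, a histone chaperone, at 0.08. In the pooled test 0 of the 34 passed with edgeR, DESeq2 or limma-voom, and 1 had an unadjusted p under 0.05 with each.

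Other nucleotide synthesis genes lay near their controls in the median. Of the 32 with a row above the floor, the medians were 0.04 in shHDAC6 over shControl, -0.05 in ACY1215 over vehicle and 0.02 in CAY10603 over vehicle. In ACY1215 5 were at least 1.5-fold lower, against 7.76% of all genes, and 1 higher, against 5.86%. Among the lowest was SHMT1, a serine hydroxymethyltransferase, at 38.4 CPM in shHDAC6, 22.6 in ACY1215, 33.2 in CAY10603, 32.4 in shControl and 45.3 in vehicle (log2 fold -1.002). The highest were ATIC, of purine synthesis, at 0.64, and NME1, a nucleoside diphosphate kinase, at 0.36. ATIC and NME1 were also higher in shControl than in vehicle, at 0.76 and 0.74. In the pooled test 0 of the 32 passed with edgeR, DESeq2 or limma-voom, and 0 had an unadjusted p under 0.05 with each. NME1 has a near-identical relative, and PCNA has processed pseudogenes, so reads of both could be split between copies. TYMS overlaps an antisense gene, and no source used here gives the strand setting of the counting.

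Of 11 other E2F and pocket protein genes 3 were at least 1.5-fold lower in ACY1215, against 7.76% of all genes. The list median was -0.06 in ACY1215 over vehicle and 0.13 in shHDAC6 over shControl. The lowest were the repressor E2Fs, E2F8 at -1.70 and E2F7 at -1.08. E2F8 had 9.09 CPM in shHDAC6, 2.86 in ACY1215, 9.05 in CAY10603, 7.90 in shControl and 9.40 in vehicle. The highest were TFDP2, an E2F partner, at 0.22, and E2F3 at 0.20. As in the list before, 0 of the 11 passed in the pooled test and 0 had an unadjusted p under 0.05 with each of the 3 tools.

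Some marker levels differed in the ACY1215 library as well. EPCAM, an epithelial surface protein, had 29.6 CPM in ACY1215 against 59.6 CPM in vehicle. The other 4 epithelial markers above the floor were higher in ACY1215, among them KRT8 and KRT18 at log2 folds of 0.28 and 0.26. KRT8 and KRT18 were higher still in shControl over vehicle, at 0.50 and 0.40, so their rise is not particular to ACY1215. The summed fibroblast list was 38.7 CPM in ACY1215 and 37.4 CPM in CAY10603, against 27.6 CPM in vehicle, most of it COL1A2, with the other 5 of its 6 genes below the floor. EPCAM was lower in shHDAC6 as well, at 39.7 CPM against 59.7 CPM in shControl (log2 fold -0.59), beside a replication median of 0.42. In CAY10603 the fibroblast sum stood beside a replication median of -0.0014. The part of EPCAM or of this list in the ACY1215 result was not tested.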

How the data were processed

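Total RNA of TOV21G cells was isolated with Trizol and made into stranded libraries, per the labels' protocols. The deposited values headed count are whole numbers and were treated like expected counts, since RSEM is named. They stand beside FPKM values that the authors computed, per the file headers. The submitters' processing notes list RSEM 1.2.3, edgeR and hg19 without saying what each was used for. No source used here gives the aligner or the strand setting. DMSO heads the column taken as vehicle, the only vehicle sample in the labels. Left out were 2 blank rows, and 27 rows whose symbols had turned into dates were not named.

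The members and lists were chosen with earlier results of these data known. Counts were analysed as deposited with edgeR 4.0.16 in R 4.3.3: a robust quasi-likelihood test with experiment type as covariate, TMM over the tested genes (1 CPM or more in 2 or more libraries), and Benjamini-Hochberg adjustment at 0.05 over all of them. This fit was checked on simulated data for the sign of planted folds. Each planted fold was the same in all repressed HDAC6 libraries, unlike the opposite folds of shHDAC6 and ACY1215. The check therefore does not bear on the lack of genes called. TMM was first computed over all rows and was changed after values had been seen, and both are kept. Alternatives used DESeq2 1.42.0 and limma 3.58.1. Single pairs of libraries use log2 CPM with a prior count of 2. Intervals at a level of 95% are exact Poisson for a library and exact binomial for a ratio, and cover counting error only.

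For each role the members with the largest and the smallest ACY1215 fold are described, plus MCM2, PCNA, RRM2, TYMS, CDC6, CCNE1 and E2F1, and for each further list the 2 highest and 2 lowest. Some genes of these lists are not reported here. Other members (GINS2, CDC45, CDT1, RFC2, RFC4, PRIM1, PRIM2, FEN1, RPA2, RPA3, RRM1, TK1, DUT and CCNE2), the 16 plotted genes, the FPKM ratios (11 pairs were computed) and the interaction test were chosen after their values were seen.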

Additional observations from a re-analysis of the deposited data

How the results depend on the processing

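No library repeats a treatment, so no p-value here speaks of separate cultures, and depth sets only the counting intervals, which are wide for low genes such as E2F1. The pooled fit called 4 genes without ACY1215 and 0 without CAY10603, with 0 members called in either. The members' median pooled log2 fold was -0.06 with all libraries, 0.17 without ACY1215 and -0.25 without CAY10603. Leaving out shHDAC6, shControl or vehicle changes the comparison itself, because the covariate takes up the libraries left without a counterpart. Without shHDAC6 or without shControl the fit sets the drugs against vehicle, with a median of -0.38 each. Without vehicle it sets shHDAC6 against shControl, with a median of 0.42. The sign of the pooled median thus depends on which libraries are in the fit. Where an arm has a lone library, that library is assumed to vary like the others.

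With the library total in place of TMM, 11 members were at least 1.5-fold higher in shHDAC6, where the TMM scaling gave 7. The median of all genes in shHDAC6 over shControl was then 0.03. The ACY1215 median was -1.02, with the median of all genes at -0.10. Shares over all genes under the library total are not given here. Against the other control the medians were 0.11 (shHDAC6), -0.50 (ACY1215) and 0.30 (CAY10603), with 0 members 1.5-fold higher in shHDAC6 and 22 lower in ACY1215. Against the mean of both controls, chosen after seeing the data, they were 0.19, -0.71 and 0.16, with 1 member 1.5-fold higher in shHDAC6. The cause was not tested. TMM over all rows, also chosen after seeing the data, kept 39 members lower in ACY1215 and 7 higher in shHDAC6. DESeq2 size factors, a prior count of 0.5, a floor of 1 CPM and the authors' FPKM moved no median by more than the typical width on either side of the members' counting intervals and no count by over 1.5 times. Values of single genes were counted once per gene and comparison. Against the other control 125 lay outside their counting interval and 22 within, and against the mean of both 104 and 43. With FPKM 34 lay outside and 162 within, with the library total 32 and 164, and with TMM over all rows 7 and 238. The sign of a member at least 1.5-fold apart was not reversed in any setting. No paired analysis was possible because the labels give no replicate numbers, so a block by number could not be formed. Experiment type is the one tie between libraries that they give, and the pooled fit holds it as a covariate. Without that covariate 0 genes and 0 members were called, with 69 genes at an unadjusted p under 0.05.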
